A study of Mus musculus with 16 samples.

Results

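γδ T cells carrying transcripts of Myb and Eomes were followed in the liver-draining lymph nodes (LN) of mice fed 3,5-diethoxycarbonyl-1,4-dihydrocollidine (DDC), a compound that causes inflammation of the bile ducts and cholestasis. Members of this population were chosen cell by cell from the deposited counts of unique molecular identifiers (UMIs, each standing for 1 captured transcript). A member carried at least 1 UMI of Trdc, the constant gene of the T cell receptor δ chain, and at least 1 UMI of 3 or more of the 6 genes Myb, Eomes, Nrgn, Cldn10, Crtam and Sh2d1a. It carried no UMI of the 6 genes Gzma, Cd163l1, 5830411N06Rik, Cd79a, Ly6c2 and Ccr9. This gave 240 members among 12768 LN cells with Trdc, out of 14497 LN cells assigned to a condition and 51608 cells in the whole series. A cell was a barcode with at least 1000 RNA UMIs, at least 500 genes and at most 10% mitochondrial UMIs, and in the pools its leading hashtag had at least 10 UMIs and at least 3 times the UMIs of the next.

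The mice of the single-cell experiments were male, and those whose liver cells were isolated were C57BL/6J mice aged 6 to 12 weeks. D0 stood for control mice, D5 and D19 for mice on chow with 0.1% DDC for 5 and 19 days, and STOP for 18 days of that chow with 7 days of recovery. D5-DT stood for Mgl2-DTR mice, in which cells that use the Mgl2 promoter carry the diphtheria toxin receptor, given the toxin on days -1 and 2 and DDC chow for 5 days, so that it differed from D5 by genotype and by toxin. The LN pool called D19 named both day 18 and day 19 in its description. Cells had been sorted from hepatoduodenal and celiac nodes as living CD45+ CD3e+ TCRβ- TCRγδ+ cells, which limits the data to what this gate lets through. The number of mice behind each arm was not given in the sources used here. Each condition was 1 hashtag arm, so no comparison between conditions had a replicate and none was tested. All intervals are 95% intervals for counting error alone.

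The condition of each cell was read from a hashtag, an antibody that carries a DNA barcode. The 5 barcodes that define the LN arms are shown because every difference between conditions rests on them, and they are written in lower case with no base marked.
LN D0, Hash3: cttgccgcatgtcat
LN D5, Hash4: aaagcattcttcacg
LN D19, Hash5: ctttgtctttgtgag
LN STOP, Hash6: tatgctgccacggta
LN D5-DT, Hash4: aaagcattcttcacg
D0 and D5 were pooled in 1 library, D19 and STOP in another, and the D5-DT nodes shared a library with D5-DT liver, so the same barcode could serve in D5 and in D5-DT. The members carried a median of 2562 UMIs of their own hashtag at D0 against 10.5 of the next, and 1736 against 3 at D5. The lowest own-hashtag count of any member was 267 UMIs, in D5-DT.

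γδ T cells recognise targets without the classical peptide display that αβ T cells need, and they include fast cytokine producers of the type 17 kind as well as cells with cytotoxic or memory features. Myb is a transcription factor of lymphoid progenitors that also maintains long-lived T cells with stem-cell features. Eomes is a T-box factor of memory and cytotoxic lymphocytes and of NK cells. Sh2d1a encodes SAP, the adaptor of the SLAM family receptors. Crtam encodes an immunoglobulin-family receptor induced on activated lymphocytes. Cldn10 encodes a tight junction claudin and Nrgn a calmodulin-binding protein, both better known from tissues other than lymphocytes. Of the excluded genes, Cd163l1 (Scart1) and 5830411N06Rik (Scart2) mark γδ T cells of the type 17 kind, Gzma encodes a granzyme, Cd79a a B cell receptor subunit, Ly6c2 a surface antigen of memory T cells and monocytes, and Ccr9 a homing receptor for the gut.

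The 3 libraries with LN arms held between 13074668 and 71447265 RNA UMIs over all barcodes. The 5 LN arms held between 780 and 10314 cells, and the share of them with Trdc ranged from 52.9% at D19 to 92.7% at D5. Between 0 and 27 cell barcodes were shared by any pair of the 8 libraries, and 3 of the 240 members had such a barcode. Among members, 5 of 240 were among the cells with the highest Scrublet doublet scores.

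The members were T cells by their transcripts. Cd3e, a chain of the CD3 complex, was found in 221 of 240 members, and 233 had 2 or more UMIs of Trdc. Ncr1, which encodes the NK cell receptor NKp46, was found in 3 members, Klrb1c (NK1.1) in 13 and Cd4 in 0. Trac, the constant gene of the αβ receptor's α chain, was found in 92 members (38.3%), against 22.3% of the comparison cells and 10 of 668 B cells of the same arms. Comparison cells here and below are the 2512 LN cells with Trdc that also lacked all 6 excluded genes but had 0 to 2 of the 6 required genes. B cells are cells with 2 or more UMIs of Cd79a and none of Trdc. None of those 668 B cells had 3 of the required genes, which allows a share of up to 0.449%, at a median of 3155 UMIs against 3619 and 4684 in the members of D0 and D5. Of the required genes, Cldn10 was found in 2.10% of those B cells, Myb in 1.35%, Nrgn in 1.05%, Eomes in 0.449%, Sh2d1a in 0.299% and Crtam in 0.15%. These shares give the level that free RNA can leave in a cell that should lack the genes. For Cldn10 this level was above the 1.31% of comparison cells and below the 39.2% of members.

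Marker lists of other cell types were read in the members of every arm. Monocyte and macrophage markers summed to between 0 and 32.9 CPM across arms (CPM, counts of a gene scaled to the total count of its cell group), with 2 of 6 genes seen and Csf1r, Fcgr1, Adgre1 and C1qa at 0, whereas the comparison cells held between 26.0 and 4935 CPM. NK markers other than Eomes summed to between 0 and 117 CPM in members, with 3 of 5 seen and Klra8 and Klra4 at 0, and between 62.4 and 177 CPM in comparison cells. At D0 they were higher in members, at 117 against 71.2 CPM, and in every other arm they were lower. Dendritic cell markers summed to between 0 and 1149 CPM in members, with the highest value in STOP, where 11 cells stood behind it, and 4 of 8 genes seen, against 150 to 3419 CPM in comparison cells. B cell markers other than Cd79a summed to between 197 and 471 CPM, with Pax5 at 0, below the comparison cells of every arm. Markers of αβ T cells, with Cd4 at 0, summed to between 1230 and 2427 CPM in members and 877 and 2644 in comparison cells, plasma cell markers to between 11.5 and 82.3 CPM against 38.3 and 84.1, and stromal and endothelial markers to between 80.4 and 231 CPM against 56.3 and 464, from Pecam1 alone in members. The αβ T cell markers were lower in members at D0 and higher in every other arm, with 2141 against 1105 CPM at D5-DT. Some of these lists thus differed between members and comparison cells, and their part in the results below was not tested.

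The name of the population held for most members but not for all, and the following values describe genes that chose the cells. Myb was found in 216 members, Sh2d1a in 199 (82.9%), Eomes in 177 (73.8%), Crtam in 102 (42.5%), Cldn10 in 94 (39.2%) and Nrgn in 41 (17.1%). Myb and Eomes were both found in 159 members (66.3%), and Myb, Eomes and Cldn10 together in 52 (21.7%). Only 6 members lacked both Myb and Eomes. The most frequent of 33 combinations was Myb, Eomes and Sh2d1a, in 64 members. At the edge of the rule, 148 members had exactly 3 of the genes at a median of 4366 UMIs, and 383 cells just outside it had 2 at a median of 3858 UMIs. Within the edge cells Eomes was at 65.5% of the members with 3 genes and 25.1% of the cells with 2, while Sh2d1a was at 80.4% and 72.8%.

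In the arms, Myb was found in 41 of 48 members at D0, 145 of 162 at D5, and all 8, 11 and 11 members of D19, STOP and D5-DT. Eomes was found in 36, 122, 7, 6 and 6 members of the arms in the same order, so that its share ranged from 54.5% to 87.5% with wide intervals in the 3 small arms. Nrgn was found in 4 members at D0 (8.33%), 30 at D5 (18.5%), 2 at D19, 4 at STOP and 1 at D5-DT. Its UMIs per positive member were 1.75 at D0, 7.17 at D5, 1 at D19, 8.5 at STOP and 6 at D5-DT, with up to 45 in 1 D5 cell, and 215 of its 264 UMIs came from D5.

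**Figure D1:**
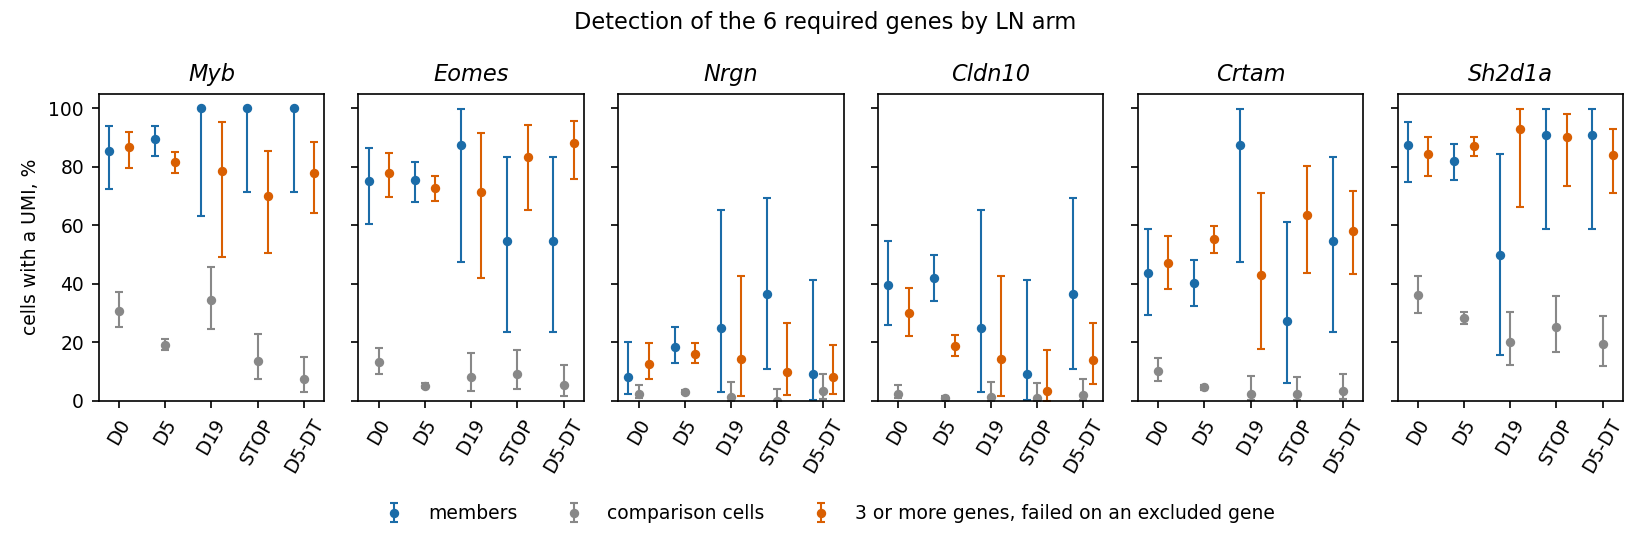
Share of cells with at least 1 UMI of each required gene (%, with exact 95% binomial intervals) in each LN arm, for members, comparison cells, and cells that had 3 or more of the genes but failed on an excluded gene. At D0 and D5 Myb and Sh2d1a stand highest in members, with Cldn10 at 42.0% of D5 members, and in the 3 small arms the intervals are wide, with Sh2d1a in 4 of 8 D19 members and Eomes at 54.5% of STOP and of D5-DT members.

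In pairs of the required genes, 1 gene was found more often in cells with the other than in cells without it. At equal depth Nrgn with Eomes and Nrgn with Crtam were the exceptions. This was read over LN cells with Trdc that lacked the excluded genes. After thinning this is a wider set than the members and comparison cells, because thinning also removes UMIs of the excluded genes. After each cell was thinned to 1000 UMIs, Eomes was found in 11.3% of cells with Myb and 2.76% of cells without, and Cldn10 in 6.74% of cells with Eomes and 1.11% of cells without. Cldn10 was also found in 11.8% of 68 cells with Nrgn and 1.17% of cells without. Nrgn was found in 0.562% of cells with Eomes, which was 1 cell of 178, and in 1.46% of cells without, and Crtam in 1.47% of cells with Nrgn, also 1 cell, and in 2.08% of cells without. At full depth neither pair was an exception. There Nrgn was found in 4.81% of cells with Eomes and 3.93% of cells without. Crtam was found there in 18.02% of 111 cells with Nrgn and 7.80% of cells without.

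The excluded genes removed more cells than they left, as they did among LN cells with Trdc in general. Of all 12768 LN cells with Trdc, only the 240 members and the 2512 comparison cells lacked all 6 excluded genes. Of 914 LN cells with Trdc and 3 or more of the required genes, 674 (73.7%) failed on an excluded gene, and 399 of those failed on Ly6c2 alone. Ly6c2 was found in 553 of the failed cells, with 3 or more UMIs in 417, and Ccr9 in 148. Free RNA can add single UMIs to any cell. In barcodes with few UMIs of the D0 and D5 pool, Ly6c2 made up 794 CPM, and 7.78% of the B cells carried it. Among the failed cells, 83 had 1 UMI of Ly6c2. In the D5-DT pool free RNA held Gzma at 1190 CPM, 54.0% of the D5-DT B cells carried it, and 32 of the 50 failed D5-DT cells did. Of the cells with Trdc, 11.7% lacked all 6 excluded genes at D5-DT and 22.7% at D5. The part of free RNA in the number of failed cells was not tested.

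Members were found in every LN arm and were rarer at D5 than at D0. They made up 48 of 1416 cells with Trdc at D0, which is 3.39% (2.51 to 4.47), and 162 of 9564 at D5, which is 1.69% (1.44 to 1.97). The difference was -1.70 percentage points (-2.80 to -0.773). Its direction was kept in cells thinned to 1000 UMIs, where 18 of 1052 cells (1.71%) that still had Trdc at D0 and 16 of 6953 (0.230%) at D5 were members. It was also kept without the excluded genes, at 12.4% and 6.43%. Median depth lay close, at 4248 UMIs in D0 cells with Trdc and 4346 in D5 cells. These intervals hold no spread between mice, so they do not show what another pair of mice would give.

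The late and the toxin arms held few members. They were 8 of 417 cells at D19, 1.92% (0.832 to 3.75), 11 of 493 at STOP, 2.23% (1.12 to 3.96), and 11 of 878 at D5-DT, 1.25% (0.627 to 2.23). STOP differed from D19 by 0.313 points (-1.83 to 2.35), and D5-DT from D5 by -0.441 points (-1.13 to 0.568). Both intervals include 0, but they hold counting error alone and no spread between mice, so they decide nothing between the conditions. With at least 2 of the 6 genes in place of 3, D5-DT differed from D5 by -2.53 points (-3.49 to -1.27). That interval leaves out 0 but is likewise one of counting error alone. The sign depended on the excluded genes. Among cells that lacked all 6 of them, 10.7% were members at D5-DT and 7.47% at D5, a difference of 3.21 points (-2.15 to 10.9), and without these genes in the rule the difference was 0.517 points (-1.15 to 2.47). In thinned cells the STOP and D5-DT arms held 0 members of 322 and 595 cells. In the order of the 5 arms, D0 came highest, followed by STOP, D19, D5 and D5-DT, and each neighbouring pair had intervals that overlapped.

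In the liver, cells that met the rule were close to absent. Of 6 liver arms, 5 held between 1 and 5 such cells, with shares between 0.105% and 0.152% of cells with Trdc. The liver D19 arm held 0 of 6162, which allows a share of up to 0.0487%. Without the excluded genes the liver shares still lay between 0.0325% and 1.79%, against 5.28% to 12.4% in the nodes.

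**Figure D2:**
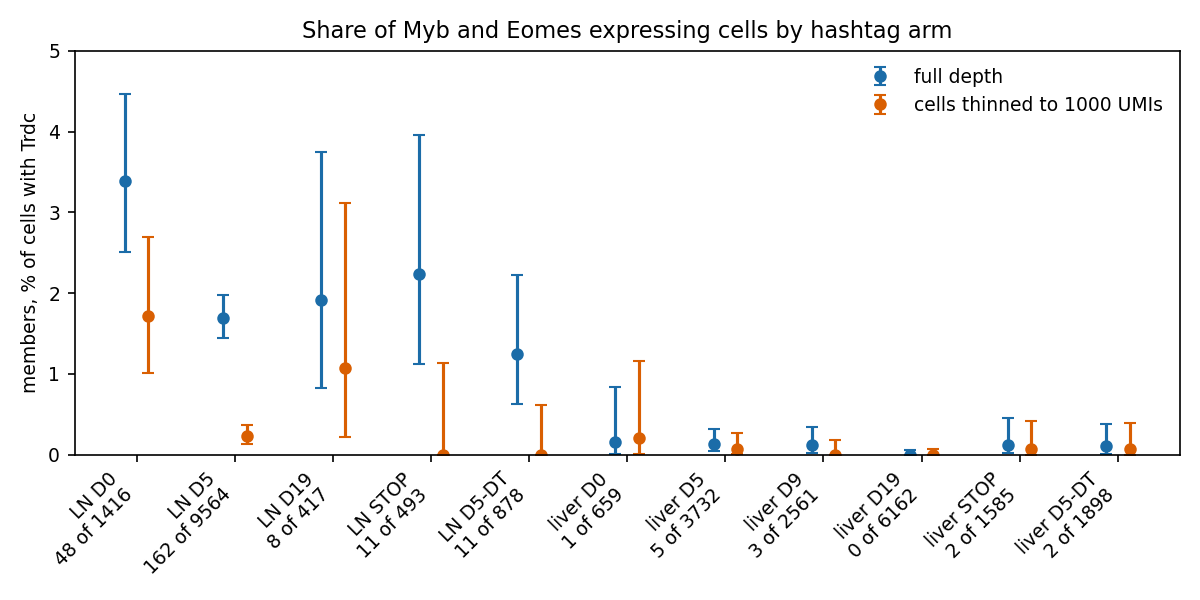
Members as a share of cells with Trdc (%, points, with exact 95% binomial intervals) in the 5 LN and 6 liver arms, at full depth and after each cell was thinned to 1000 UMIs. D0 nodes stand highest at 3.39%, and no liver arm is above 0.152% at full depth.

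In 3 further LN libraries, made by CITE-seq (RNA and antibody tags read in the same cell) without a sort for γδ T cells, 19 cells met the same rule, and these went against the label. Of the 19, 16 carried Klrb1c, 13 carried Ncr1 and 2 carried Cd3e, while 18 carried Eomes, 3 carried Myb and 0 carried Cldn10. Their CD3 antibody tag had a median of 2 UMIs, against 95 in 5074 cells of those libraries with 2 or more UMIs of Trac and no Trdc, and 2 in 676 cells with 2 or more UMIs of Ncr1. Of the 19, 15 came from D0, and both cells with Cd3e came from D5. The CITE-seq library called D5 named day 6 in its description. In the D0 library the CD3 tag median of the 15 was 2, whereas the 2 cells of D5 had a median of 58.5 and the 2 of D19 one of 46.5, against 3 and 1 in the cells with Ncr1 of those libraries. Since most of the 19 carried NK cell markers, and none came from a γδ T cell sort, they are counted among no members here, and no surface protein level is given for the members.

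The wider profile of the members was read by summing UMIs over the members and over the comparison cells of an arm, for the arms with at least 20 members, D0 and D5. Members were chosen by RNA of the same cells, so these values describe them and are no test. Of 10349 genes with at least 20 UMIs outside the rule, 47 (0.454%) were 2-fold or more higher in members in both arms, and 57 (0.551%) were 2-fold or more lower, on the scale of log2(CPM + 10). The member sums were 187883 UMIs at D0 and 872499 at D5.

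Some of the genes that were higher in members encode surface proteins of T cells. Of 12 T cell receptor response genes, 1 was higher (Tnfrsf9) and 0 lower, with median log2 differences of 0.52 at D0 and 0.16 at D5. Of 9 SLAM receptor and adaptor genes, 1 was higher (Slamf7) and 0 lower. Tnfrsf9, which encodes the costimulatory receptor 4-1BB, was at 154 CPM in members and 14.9 in comparison cells at D0, a ratio of 10.4 (5.31 to 21.3), and at 113 and 24.2 CPM at D5, a ratio of 4.68 (3.64 to 6.00). Pdcd1, which encodes the inhibitory receptor PD-1, was 4.26-fold (2.10 to 8.56) higher at D0 and 5.94-fold (4.56 to 7.72) higher at D5. Cd200, a ligand of an inhibitory receptor, was 7.51-fold (3.16 to 18.7) and 6.78-fold (5.30 to 8.64) higher. These genes were found in part of the members, with Tnfrsf9 in 25.0% and 26.5% and Pdcd1 in 25.0% and 34.0% at D0 and D5. Slamf7, a SLAM family receptor, was at 298 and 177 CPM in the members of D0 and D5 against 39.3 and 42.0 CPM in comparison cells. Gpr183, the oxysterol receptor that guides lymphocytes within lymph nodes, was 3.48-fold and 3.62-fold higher.

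Some of the higher genes encode transcription factors, although the list of T-box and partner factors had 2 of 23 genes higher (Sox4 and Ikzf2) and 3 lower (Zbtb16, Maf and Zbtb7b), with medians of -0.06 at D0 and -0.10 at D5. Sox4, a factor of developing lymphocytes, was at 788 CPM in members against 155 in comparison cells at D0 and at 530 against 130 at D5, and it was found in 64.6% and 64.2% of the members. Ikzf2, which encodes Helios, was found in 87.5% and 84.0% of members and was 2.92-fold (2.44 to 3.49) and 2.54-fold (2.34 to 2.76) higher. Tox, a factor of long-stimulated and progenitor T cells, was 4.19-fold and 3.42-fold higher. Pou2af1, a coactivator best known from B cells, was at 74.5 and 69.9 CPM in members and 9.56 and 4.95 in comparison cells, in 18.8% and 24.1% of members. B cell markers other than Cd79a summed to less in members than in comparison cells, as given above. Of 5 such genes with enough UMIs, 2 were higher in members at D0 and 1 at D5. Their part in the Pou2af1 values was not tested.

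Genes seldom named in T cells were among the 15 with the largest differences by the smaller of the arm differences. Ddc, which encodes the enzyme that makes dopamine and serotonin from their amino acid precursors and is not to be confused with the diet, was at 117 and 48.1 CPM in members against 15.9 and 4.57 in comparison cells. Kcnc1, a voltage-gated potassium channel, was at 144 and 68.8 CPM against 19.1 and 8.50. Epcam, an epithelial adhesion molecule, was at 53.2 and 55.0 CPM against 8.50 and 6.72. Cd24a, a surface protein of immature lymphocytes, rested on 10 UMIs in members and 1 in comparison cells at D0, a ratio of 50.1 (7.13 to 2174), and was 5.90-fold (4.21 to 8.21) higher at D5. Gm45716 held the largest smallest difference, at 2.16 on the log2 scale, with 197 and 249 CPM in members against 35.1 and 47.9, and BC035044 and A630001G21Rik were also among the 15.

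The genes that were lower in members included products of helper and type 17 cells. In the clustering given below, 26.1% of comparison cells fell in cluster 5, led by Cd40lg and Il4. A further 26.7% fell in cluster 1, led by Cd8b1, Dapl1 and Igfbp4. The part of this make-up of the comparison cells in the lower genes was not tested. Cd40lg, the ligand by which helper cells drive B cells, had 0 UMIs in the D0 members, at least 4.06-fold lower than comparison cells by a floor of 3 UMIs over the group, and 4 UMIs at D5, where it was at 4.58 against 80.4 CPM. Tmem176b, a gene of the type 17 kind of γδ T cell, had 0 and 5 UMIs, at least 3.53-fold lower at D0 and 5.73 against 79.4 CPM at D5. Il7r, the receptor for interleukin 7, was at 154 CPM in members and 868 in comparison cells at D0, and at 205 and 806 CPM at D5. It was found in 35.4% and 35.8% of members. S100a4 and S100a6, genes of effector and migrating cells, were at 5.32 and 69.2 CPM at D0 and 26.4 and 123 at D5, against at least 135 CPM in comparison cells. Ccr2, a receptor for monocyte chemokines, was at 5.32 and 9.17 CPM against 60.6 and 68.7.

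Dtx1, a target and regulator of Notch signalling, had 0 UMIs at D0, at least 5.52-fold lower, and was at 9.17 against 95.1 CPM at D5. Igfbp4 had 0 UMIs at D0, at least 4.26-fold lower, and was at 18.3 against 121 CPM at D5. Cd8b1, the CD8 β chain, was at 10.6 and 22.9 CPM in members against 109 and 135. Lyz2, a lysozyme of myeloid cells, was at 5.32 and 3.44 CPM in members against 498 and 50.6 in comparison cells, and it belongs to the monocyte markers whose sums differ between the cell groups in the same direction.

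**Figure D3:**
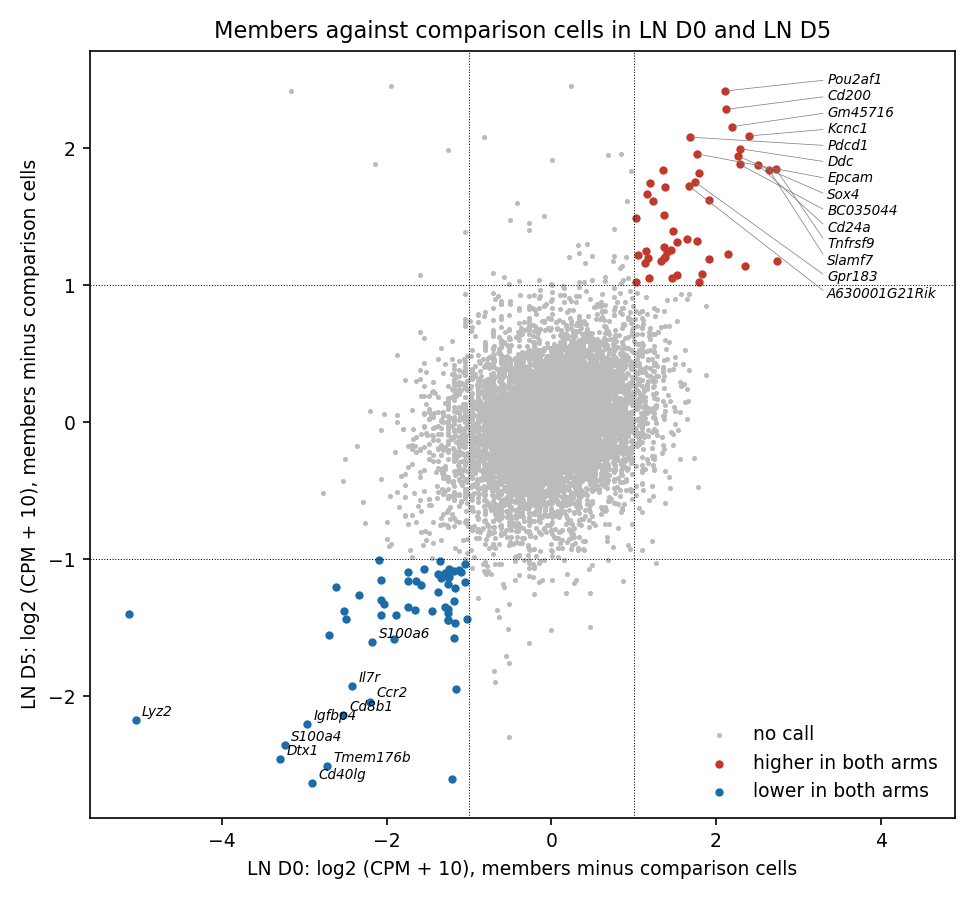
Difference between members and comparison cells for each of 10349 genes, as log2(CPM + 10), at D0 (x axis) and D5 (y axis), with dotted lines at a 2-fold difference. Red and blue points are the 47 and 57 genes past the lines in both arms, with names beside those of largest smaller difference that the text describes.

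Read by lists, the list named for inhibitory receptors had 7 measured genes, of which 3 were higher and none lower. Of the 3, Pdcd1 encodes such a receptor, Cd200 a ligand and Tox a transcription factor. The list had a median log2 difference of 0.78 at D0 and 1.03 at D5 against 0.00 over all genes in both arms. Of 12 type 17 genes, 5 were lower (Ccr2, Cxcr6, Maf, Tmem176a and Tmem176b) and 0 higher, with medians of -0.76 and -1.10. Il17f, Il23r, Il1r1, Ccr6, Blk and Il22 had 0 UMIs in the members of both arms, and they were scarce in comparison cells too, where Il23r had 1 and 29 UMIs. The lists had been chosen with earlier results of these data known, and the rule itself excluded the type 17 markers Cd163l1 and 5830411N06Rik.

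Of 9 type 2 and helper genes, 4 were lower (Zbtb16, Cd40lg, Icos and Il6ra), and Pdcd1, which stands on this list too, was higher. Zbtb16 encodes PLZF, the factor of innate-like T cells. Of 13 memory and progenitor genes, Tox and Ikzf2 were higher and none lower, and Xcl1, Il2rb, Cd27, Slamf6 and Id3 were among those with no 2-fold difference in both arms. Of 12 genes of naive and recirculating T cells, Il7r and Igfbp4 were lower and 0 higher, with medians of -0.07 at D0 and -0.45 at D5. In members 6 of the 12 lay below the comparison cells at D0 and 9 at D5. Among the others, Tcf7, which encodes the factor TCF-1, was at 660 and 440 CPM in members against 407 and 338.

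Of 14 effector genes of the type 1 kind, 0 were higher and 1, Ctsw, was lower by 2-fold in both arms. The median of this list was -0.61 at D0, with 12 genes below the comparison cells, and -0.28 at D5, with 10 below. Ccl5, a chemokine of memory and cytotoxic cells, was at 2848 CPM in members and 2764 in comparison cells at D0, and at 1414 and 1789 CPM at D5. Tbx21, which encodes T-bet, the partner of Eomes in type 1 cells, had 0 UMIs in the D0 members and was at 24.1 against 22.8 CPM at D5. Gzmb had 0 UMIs in members of both arms. Of 16 cytotoxic and NK receptor genes only Ctsw was called, and no gene was called among 12 interferon response, 12 stress, 11 cell cycle and 8 quiescence genes. All 12 interferon response genes were nevertheless below the comparison cells in both arms, with a median of -0.51 in each. The 11 cell cycle genes were all above the comparison cells at D5, with a median of 1.09 against -0.27 at D0, and 388 of the 748 UMIs of this list in D5 members came from 1 cell.

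Receptor genes, which the rule did not read beyond Trdc, were found over all arms at the following shares. Trgv2 was found in 137 of 240 members and 1431 of 2512 comparison cells, Tcrg-V1 in 31.3% and 29.5%, and Tcrg-V4 in 7.92% and 8.20%. Tcrg-V6, the chain of many innate type 17 cells, was found in 1 of 240 members and was rare in comparison cells too, in 26 of 2512. Trdv2-2 was found in 17 members (7.08%) and 3.19% of comparison cells. Tcrg-C1 was found in 26.7% of members and 40.0% of comparison cells, while Tcrg-C2 was at 56.7% and 54.3%. The γ constant genes are close copies of each other, so reads may have been split between them. At D0 alone Trgv2 was found in 17 of 48 members and 123 of 243 comparison cells, Tcrg-C2 in 20 and 135, and Tcrg-C1 in 7 and 83. None of the 10 variable genes with enough UMIs passed 2-fold in both arms.

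The 3 small arms were not used to choose the genes above and give a second reading of them, though their members were chosen by the same rule. UMIs were summed over these 3 arms before the ratio was taken, so differences between arms enter it. Monocyte and macrophage markers, for one, were at 4935 CPM in D5-DT comparison cells, 204 in STOP and 26.0 in D19. Their part in this reading was not tested. In 30 members and the comparison cells of D19, STOP and D5-DT together, 34 of the 47 higher genes had at least 20 UMIs. Of those, 31 were higher in members and 20 (58.8%) were 2-fold or more higher, against 3.52% of all genes. Of 56 lower genes with enough UMIs, 51 were lower and 32 (57.1%) were 2-fold or more lower, against 9.54% of all genes. Sox4 was at 533 against 68.5 CPM, Tox at 252 against 46.1 and Ikzf2 at 957 against 199. Slamf7 differed by 0.18 on the log2 scale there. Cd8b1 went the other way, at 51.6 against 30.8 CPM.

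The profile depended on which cells were compared. Set against the 674 cells that failed on an excluded gene, an alternative chosen after seeing the data, 10 genes were higher, all among the 47, and 30 were lower, of which 9 were among the 57. When no gene was required at 0, which changes the members and the comparison cells alike, 18 genes were higher, 15 of them among the 47, and 10 were lower, 9 of them among the 57. In the failed cells of D0 and D5, Il7r was at 490 and 586 CPM, and Gpr183 at 341 and 270 CPM, in each arm between the levels of members and comparison cells.

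Members also stood together when the 13 genes of the rule were left out of the reading. Over 30 principal components of the other variable genes, 20.9% of the 15 nearest neighbours of members were members, against 1.63% of those of comparison cells and 1.59% of those of all cells, and in the arms the share ranged from 13.9% at D5-DT to 29.2% at D19. Of the neighbours of members, 25.7% were cells that failed on an excluded gene. In a clustering of the same cells, 182 of the 240 members (75.8%) fell in cluster 7, with 41 of 48 at D0, 118 of 162 at D5, 7 of 8 at D19, 7 of 11 at STOP and 9 of 11 at D5-DT.

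Cluster 7 held 914 cells, led by Myb, Tnfrsf9, Eomes, Kcnc1 and Cldn10, of which Myb, Eomes and Cldn10 were not used to form it. It also held 244 failed cells (36.2% of them) and 198 comparison cells (7.88% of them). Of the cells with Trdc, cluster 7 held 13.98% at D0, 6.41% at D5, 7.43% at D19, 3.04% at STOP and 6.49% at D5-DT. D0 was highest here as in the shares of members, but STOP was lowest and D5-DT was not below D5. Ly6c2 was found in 42.5% of the cells of cluster 7 and in 47.6% of all LN cells with Trdc. The exclusion on Ly6c2 thus divided the cells of this cluster, as it divided LN cells with Trdc in general. The next clusters in members were cluster 4, led by Klre1 and Klrc2, with 16 members, and cluster 2, led by Ccr9 and Arpp21, with 13.

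**Figure D4:**
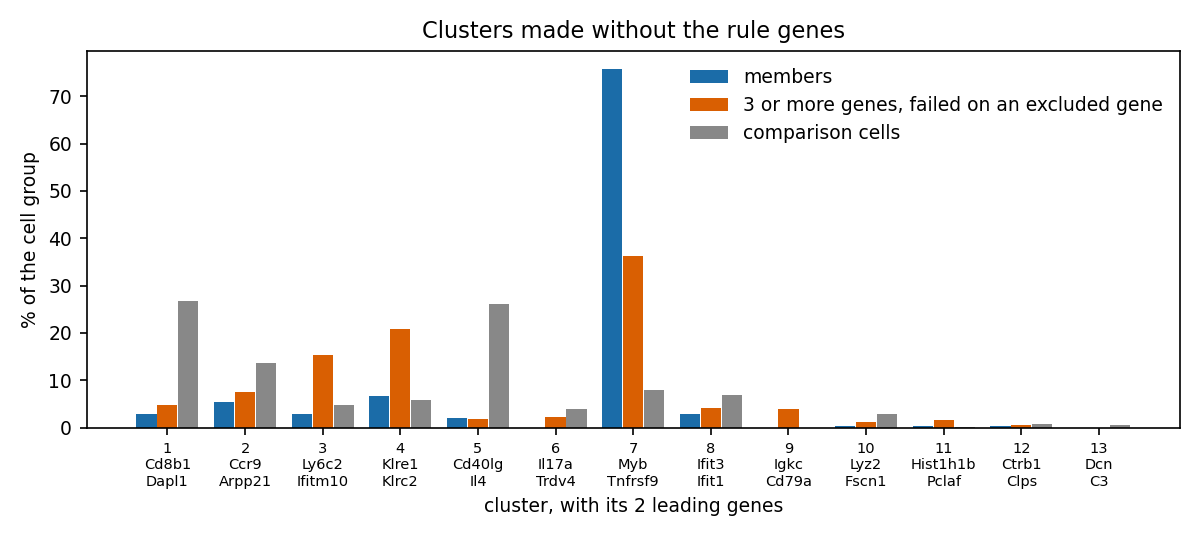
Share of members, of cells that failed on an excluded gene and of comparison cells (% of each cell group) in each of 13 clusters made without the rule genes, with the 2 leading genes of each cluster. Cluster 7 holds 75.8% of members, 36.2% of failed cells and 7.88% of comparison cells.

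Members were not uniform, and the following splits were chosen after values were seen. Members with Cldn10 (19 at D0 and 68 at D5) had less Ccl5 than members without, at 749 against 4079 CPM at D0 and 654 against 1983 at D5. Klrd1, which encodes the NK receptor chain CD94, went the same way, at 43.2 against 304 and 64.3 against 198 CPM. Sox4 and Ikzf2 went the other way. Sox4 was at 1065 CPM with Cldn10 and 625 without at D0, and 731 and 379 at D5, and Ikzf2 was at 1540 and 777 at D0 and 1128 and 621 at D5. These values are a description, since Cldn10 is a gene of the rule and a member with it needed only 2 other required genes. Eomes was found in 11 of 19 members with Cldn10 and 25 of 29 without at D0, and in 45 of 68 and 77 of 94 at D5. Median depth was 3455 and 3720 UMIs at D0 and 4533 and 4727 at D5.

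The 30 D5 members with Nrgn had lower Eomes and Slamf7 than the 132 without, at 112 against 412 CPM and 53.5 against 214 CPM. They had higher Tnfrsf9, at 224 against 79.5 CPM. Xcl1, which encodes the chemokine that draws cross-presenting dendritic cells, was at 1828 against 373 CPM, but 255 of its 376 UMIs came from 1 cell. Median depth was 5667 UMIs with Nrgn and 4499 without, and the rule bears on Eomes, since a cell with Nrgn needed only 2 other required genes. Among the 30 was the deepest D5 member, with 39113 UMIs, which weighs on each CPM value of this split. That member carried Cldn10 as well, so it also enters the D5 values with Cldn10 above.

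Finally, the D5 members were set against the D0 members, which asks how the population differed after 5 days of diet. There was 1 arm on each side, so this compares these arms and not the diet. Of 5717 genes with at least 20 UMIs, 39 (0.682%) were 2-fold or more higher at D5 with Poisson intervals apart, and 29 (0.507%) were lower, and counting error alone carries some genes past this line when so many are read. The same comparison in the comparison cells gave 36 and 17 genes, of which 3 and 1 were shared. Those cells summed to 7885155 UMIs at D5 and 941356 at D0, against 872499 and 187883 in members. The genes read and the widths of their intervals thus differed between the cell groups. For this reason the counts and the overlap do not show whether the differences were particular to members. By direction alone, 29 of the 39 were also higher at D5 in comparison cells and 21 of the 29 also lower. Of all genes tested, 54.2% were higher at D5 in comparison cells.

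The Nr4a genes, which T cell receptor signals induce early, were higher at D5. Nr4a2 was at 327 CPM in D5 members and 101 in D0 members, a ratio of 3.23 (2.03 to 5.45), and was found in 53.7% and 27.1% of them. Nr4a1 was at 193 and 63.9 CPM, a ratio of 3.02 (1.68 to 5.95), and Nr4a3 rested on 59 and 2 UMIs, a ratio of 6.35 (1.68 to 53.7). In comparison cells the ratios were 2.05 (1.52 to 2.82), 2.02 (1.56 to 2.67) and 3.94 (2.18 to 7.96), so these genes were higher at D5 in both cell groups. Egr1, another early response gene, was at 61.9 and 85.2 CPM in members, with 13 of its 16 D0 UMIs in 1 cell, and was 3.92-fold (2.71 to 5.88) higher in comparison cells. Over 11 receptor response genes 3 passed and the median difference was 0.17 on the log2 scale in members and 0.72 in comparison cells, against 0.01 over all genes in members. Of 9 dissociation and stress genes 0 passed, with medians of 0.18 in members and 0.65 in comparison cells, and their part in the Nr4a result was not tested. Rbm3, an RNA-binding protein that rises in the cold, was at 798 and 282 CPM in members and 2.23-fold higher in comparison cells, and since each condition was 1 arm, condition and arm cannot be told apart. Tcrg-C4, a γ constant gene, was at 266 and 122 CPM in D5 and D0 members, a ratio of 2.17 (1.41 to 3.495), and 1.05 (0.918 to 1.19) in comparison cells.

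Cytokine genes drew a large part of their D5 UMIs from single members. Xcl1 was at 716 CPM in D5 members and 176 in D0 members, a ratio of 4.08 (2.87 to 5.98), and was found in 34.6% and 20.8% of them, but 255 of 625 UMIs came from 1 member. In comparison cells its ratio was 0.966 (0.840 to 1.12). Ifng, which encodes interferon-γ, the cytokine of type 1 immunity, had 44 UMIs against 1, with 26 of them in 1 member, and all 27 UMIs of Areg came from 1 member. Maf, a factor of helper and type 17 cells, had 40 UMIs in 30 D5 members against 1 UMI at D0, a ratio of 8.61 (1.46 to 349), and stayed below the comparison cells of both arms.

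Of the 5 largest differences, 4 came almost wholly from 1 cell. Hist1h1b, Pclaf, Top2a and Hist1h3c, genes of DNA replication and division, had between 33 and 122 UMIs at D5 and 0 at D0, and at least 91.9% of each came from 1 member with 39113 UMIs, which carried all 6 required genes and was not among the highest doublet scores. The next deepest D5 member had 14479 UMIs. Mki67 or Top2a was found in 6 of 162 members at D5 and 1 of 48 at D0, against 3.14% and 4.53% of comparison cells. Hivep3 was the fifth, at 55 UMIs in 22 members against 1 UMI. Without the deepest member, an alternative chosen after seeing the data, 33 genes were higher, of which 29 were among the 39, and 21 lower, all among the 29. The genes lost without it included Ccl5 and S1pr1, whose ratios moved from 0.497 to 0.517 and from 0.479 to 0.501, across the 2-fold line.

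Genes lower at D5 included a chemokine and a receptor of migration. Ccl5 was at 1414 CPM in D5 members and 2848 in D0 members, a ratio of 0.497 (0.448 to 0.551), and 0.647 (0.621 to 0.675) in comparison cells. At D0, 118 of its 535 UMIs in members came from 1 cell. S1pr1, the receptor that leads T cells out of lymph nodes, was at 183 and 383 CPM, a ratio of 0.479 (0.360 to 0.641). In comparison cells S1pr1 was at 0.815 (0.729 to 0.913). Gimap7, a GTPase of resting lymphocytes, was at 90.5 and 255 CPM, a ratio of 0.354 (0.245 to 0.518). The other genes furthest below D0 were Zkscan3, Cdk5rap1, Pde4b and Ncoa3, with between 10 and 23 UMIs at D5 and between 10 and 21 at D0. Ddc and Ift80, which were higher in members than in comparison cells, were also among the 29.

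**Figure D5:**
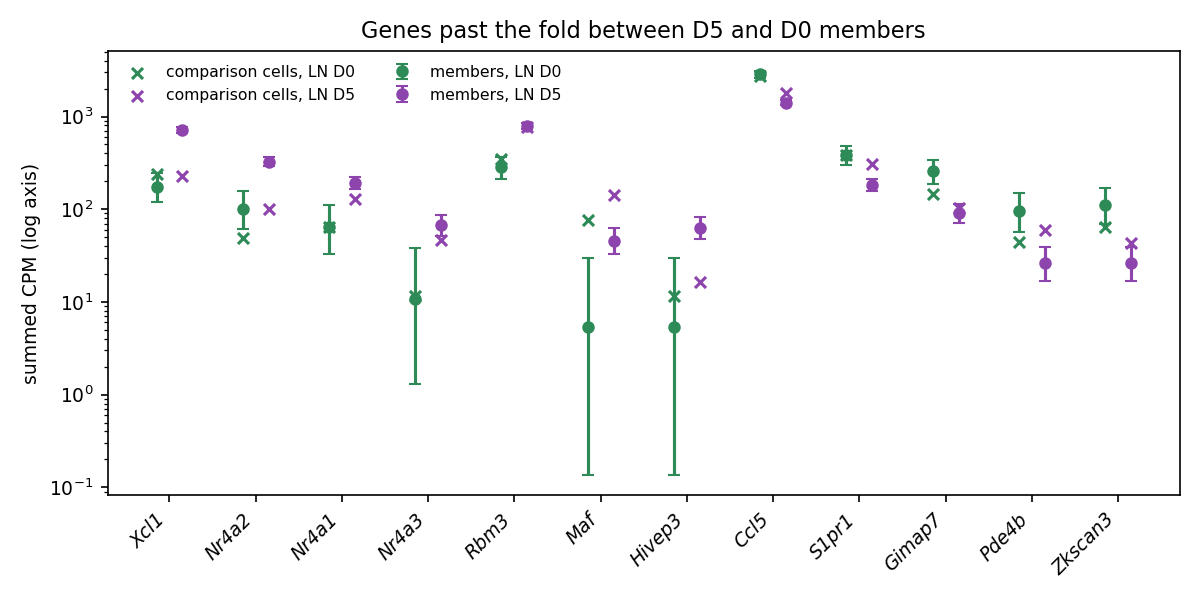
Summed CPM (log axis) of genes past the 2-fold line between D5 and D0 members, with exact 95% Poisson intervals for members (circles) and values of comparison cells (crosses) in green for D0 and purple for D5. Xcl1 is at 176 CPM in D0 members and 716 CPM in D5 members, and Ccl5 is lower at D5 in both cell groups.

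Among the genes that chose the members, Eomes was at 342 CPM in D5 members and 580 in D0 members, a ratio of 0.589 (0.471 to 0.740), and Myb was at 607 and 772 CPM, a ratio of 0.787 (0.654 to 0.952). Nrgn was at 246 and 37.3 CPM, a ratio of 6.61 (3.16 to 16.6), over 30 and 4 cells. Trdc itself was at 1276 and 1948 CPM in members, a ratio of 0.655 (0.581 to 0.739), and 0.977 (0.924 to 1.03) in comparison cells. In comparison cells Eomes was at 0.449 (0.318 to 0.647), Myb at 0.529 (0.447 to 0.630) and Nrgn at 1.27 (0.684 to 2.61), but those cells were limited to 2 of these genes, and these ratios are descriptions.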

How the data were processed

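Single-cell RNA and antibody tag libraries of sorted γδ T cells and of LN cells were analysed. The authors had mapped reads with Cell Ranger, and the matrix header names version 4. The submitters' processing notes name the mm10 build. The deposited matrices hold raw UMI counts per gene or tag and barcode, unfiltered for cells, so the cell filter given in the report was set here. The members and gene lists were chosen with earlier results of these data known. Hashtags were named by the deposited feature tables. The UMI counts of a cell group were summed per arm and given as CPM. Genes needed 20 UMIs, and differences were taken on log2(CPM + 10). Each arm is 1 sample, so no test was run. Shares have exact Clopper-Pearson intervals, sums exact Poisson intervals and ratios exact conditional intervals, and 0 counts a floor of 3 counts. UMIs were taken as independent. Named are the genes of the rule and lists, the 15 largest rises and 10 largest falls by the smaller of the D0 and D5 differences, and the 5 largest rises and falls between arms. Genes outside this rule that the text singles out (the Cldn10 and Nrgn splits, the other genes of the D5 contrast, the comparison with failed cells) were picked after their values were seen. Some genes that met this rule are not reported here. Doublets were not removed. The cells with the highest Scrublet scores (scanpy 1.11.5), 0.8% per 1000 cells of a pool, were left out as an alternative. Neighbours used 2000 variable genes without the rule genes, and clusters the Leiden method (leidenalg 0.10.2, resolution 1.0). Thinning drew 1000 UMIs per cell and left out no cell. Intervals used scipy 1.17.1 under Python 3.11.15. The steps were tested on simulated data. Alternatives changed the cell, hashtag, Trdc and gene number thresholds, the added CPM, the minimum of UMIs, the comparison cells and the depth.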

Additional observations from a re-analysis of the deposited data

How the results depend on the processing

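The shares of members moved with the rule and with depth. With at least 2 of the 6 genes they were 8.33% at D0, 4.69% at D5 and 4.56% at D19, and D5 differed from D0 by -3.64 points, D5-DT from D5 by -2.53 (-3.49 to -1.27, which leaves out 0 as the main interval does not) and STOP from D19 by -0.905. With at least 4 they were 1.27% at D0, 0.659% at D5, 0.406% at STOP and 0.456% at D5-DT, with -0.613 points for D5 minus D0 and -0.793 for STOP minus D19. In cells thinned to 1000 UMIs they were 1.71% at D0, 0.230% at D5, 0% at STOP and 0% at D5-DT, with -1.08 points for STOP minus D19. With no gene required at 0 they were 12.4%, 6.43%, 5.28%, 8.32% and 6.95% in the order D0, D5, D19, STOP and D5-DT, with -5.93 points for D5 minus D0, 3.04 for STOP minus D19 and 0.517 for D5-DT minus D5. D0 thus stayed above D5 under each of these settings, whereas the sign of STOP minus D19 turned under 3 and that of D5-DT minus D5 under 1. The cause was not tested.

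The 47 higher and 57 lower genes of the profile became 147 and 389 with 1 CPM added in place of 10, and 12 and 11 with 50 CPM. With at least 4 of the 6 genes they were 218 and 286, read in D5 alone because D0 had 18 such members. Read in 1 arm, which asks for less, the counts ranged from 90 to 138 higher and from 117 to 273 lower, with 90 and 117 without D0 and 138 and 273 without D5. Against the failed cells they were 10 and 30, and with no gene required at 0 they were 18 and 10, both chosen after seeing the data. Between D5 and D0 members, the 39 higher and 29 lower genes became 12 and 3 with 50 CPM added, and 17 lower genes were left with a minimum of 50 UMIs. That comparison was not run with at least 4 of the 6 genes. Beside the named genes, 68 of the alternative values stayed within their interval or 1.5 times the count, 38 moved further and 4 changed sign. Of 175 values of the 25 named genes, 159 stayed past 2-fold and 0 turned. No paired analysis was possible because each condition was 1 hashtag arm and no result comes from a test. The 8 to 11 members of the 3 small arms limit their shares and bar a profile of each.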
